A study of Homo sapiens with 10 samples.

Results

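The genes described here are 47 genes of the cell cycle and of proliferation, listed by name for their textbook roles, with earlier results of these data known, among the 23170 gene entries of the RNA sequencing tables. They were read in 4 lines that derive from PC3, an established cell line of human prostate cancer. PC3-Epi is a luciferase-carrying population selected for an epithelial shape, and PC3-EMT14 is 1 mesenchymal population isolated after PC3-Epi had been grown together with macrophages. PC3-EMT14 cells given a lentiviral construct of OVOL1 are called PC3-EMT14-OVOL1, and those given OVOL2 are called PC3-EMT14-OVOL2 (together the OVOL lines), each gene encoding a zinc finger transcription factor that favours the epithelial state. The paper states that transduced cells were selected by the manufacturer's protocol and does not name the agent. There were 2 libraries of PC3-Epi, 3 of PC3-EMT14, 3 of PC3-EMT14-OVOL1 and 2 of PC3-EMT14-OVOL2. The group names inside the tables end in II_trim for PC3-EMT14 and both OVOL lines, but not for PC3-Epi. What the ending stands for is not given, and anything behind it cannot be told apart from the line in comparisons with PC3-Epi. The labels name no empty vector line, so the OVOL gene and the transduction and selection that came with it cannot be told apart.

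FPKM are fragments per kilobase of transcript, a level corrected for gene length. The scaling here used the upper quartile of gene counts in place of all mapped fragments. The tables hold 1 pooled FPKM value per line, with no value per library. No spread between replicates and no test can therefore be given, the depth of each library is unknown, and every difference given is one between pooled values. A ratio was always taken inside the table of its own pair of lines, and a gene was counted where the higher line reached at least 1 FPKM. Where levels of several lines are listed, that of PC3-EMT14 is from its table with PC3-Epi. Its values in the pairs with the OVOL lines were slightly lower, by 1.034-fold at most. For small OVOL differences the direction is therefore that of the ratio, not of the listed levels. The 3 comparisons with PC3-EMT14 share its libraries. The labels fitted the marker genes: CDH1 (E-cadherin) stood at 1.00 FPKM in PC3-EMT14 and 50.6 in PC3-Epi, and ZEB1 at 7.59 and 0.130. OVOL1 read 11.3 FPKM in the OVOL1 line against 0.0238 in its PC3-EMT14 control, and OVOL2 read 831 in the OVOL2 line against 0.370. Of 10 macrophage markers, 9 stayed at or below 0.176 FPKM in every line, with TYROBP listed at 0 in all but PC3-EMT14, while CD68, which other cells also express, stood at 54.1 in PC3-EMT14, 13.3 in PC3-Epi, 51.2 in the OVOL1 line and 57.8 in the OVOL2 line. The list summed to 54.5 FPKM in PC3-EMT14 and 13.6 in PC3-Epi, and its part in the results was not tested.

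Cells enter the cycle when D-type cyclins with CDK4 or CDK6, and then cyclin E with CDK2, phosphorylate the retinoblastoma protein and free the E2F factors. E2F factors switch on the genes of DNA replication, and CDC6 and CDT1 load the MCM helicase onto origins. Later, cyclin A and B with CDK1, together with Polo and Aurora kinases, drive mitosis, and p21, p27 and p18 (CDKN1A, CDKN1B, CDKN2C) restrain the kinases. Many of these RNAs are made mainly in cycling cells, so in bulk RNA a larger share of cycling cells and more RNA per cell cannot be told apart.

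The epithelial line had the higher value for most of the 47 genes listed, though CDK6, TYMS and CCND1 were only 1.019-, 1.026- and 1.03-fold higher. In PC3-Epi against PC3-EMT14, 44 of the 47 genes were higher and 3 were lower, namely CDKN1A, CDKN2C and CDC25B, where 49.1% of the 12441 genes of the table that reached 1 FPKM were higher. The median of the 47 was 0.76 on the log2 scale, or 1.69-fold, against -0.01 for all genes, and the range ran from -1.05 to 2.10. The summed level was 1735 FPKM in PC3-EMT14 and 2888 in PC3-Epi. At least 2-fold higher were 14 genes, where the background was 7.37%, and at least 2-fold lower was 1 gene, where the background was 8.34%. At 1.5-fold these counts were 33 and 2, against backgrounds of 15.2% and 16.3%. Around the 2-fold line, MCM7 and MCM2 lay just inside at log2 ratios of 1.05 each, as did CDKN2C at -1.05, and CDC25A at 0.98 and MCM5 at 0.97 lay just outside.

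OVOL1 and OVOL2 went with the same direction for most genes, at a smaller size. With OVOL1, 40 of the 46 genes that reached 1 FPKM were higher than in PC3-EMT14, where 49.7% of all genes were, with a median of 0.19 (1.14-fold) against -0.00 for all genes and a range from -0.54 to 0.49. None reached 2-fold or 1.5-fold in either direction, where the backgrounds were 2.43% higher and 1.54% lower at 2-fold, and 4.67% and 4.12% at 1.5-fold. With OVOL2, 36 of 46 were higher, where 44.0% of all genes were, with a median of 0.18 (1.13-fold) against -0.04 and a range from -1.21 to 0.72. In the OVOL2 line 0 genes were 2-fold higher and 1 was 2-fold lower, against backgrounds of 4.42% and 2.93%, and 2 and 1 passed 1.5-fold, against 8.12% and 6.92%. The missing gene in both counts was E2F2, which stayed under 1 FPKM. In both OVOL lines the counts past a fold were thus no larger than the background, and what set the genes beside all others was the number on the higher side.

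**Figure D1:**
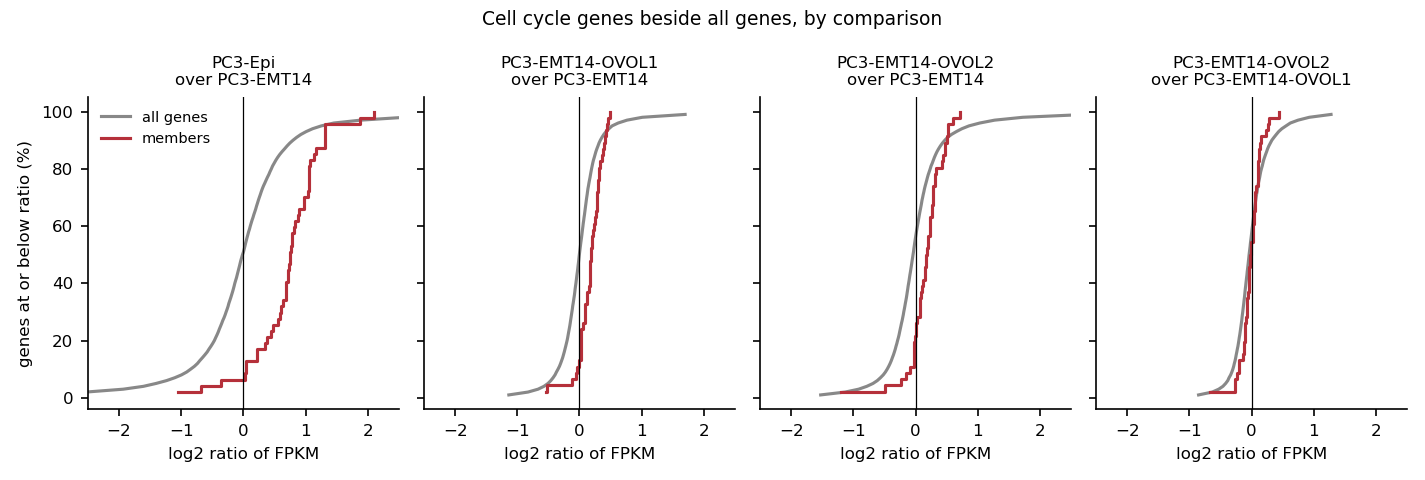
Cumulative share of genes (vertical axis, percent) at or below each log2 ratio of pooled FPKM (horizontal axis) for the 4 comparisons, with the cell cycle genes in red and all genes that reached 1 FPKM in grey, drawn from the 1st to the 99th percentile. The red curve lies well to the right of the grey one in PC3-Epi over PC3-EMT14 (medians 0.76 and -0.01), slightly to the right with OVOL1 (0.19 and -0.00) and OVOL2 (0.18 and -0.04), and close to it between the OVOL lines.

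Read line by line, PC3-Epi had the highest of the values for 41 of the 47 genes when set beside both OVOL lines. Those not above both were CCNE1, TYMS, CDKN1A, CDKN1B, CDKN2C and CDC25B. Both OVOL lines were above PC3-EMT14 for 35 genes and below it for 4, and 34 genes were higher in all 3 lines. These counts were taken over all 47 genes without the floor of 1 FPKM. They therefore include E2F2, which stayed under 1 FPKM in both OVOL comparisons. No such counts were taken over all genes. All 3 comparisons share the PC3-EMT14 libraries, so agreement between them is partly built in. The count of 41 sets values from separately normalized tables side by side. The value of PC3-EMT14 for 1 gene differed between its 3 tables by 1.031- to 1.034-fold, and that of the OVOL1 line between its 2 tables by 1.01- to 1.011-fold.

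**Figure D2:**
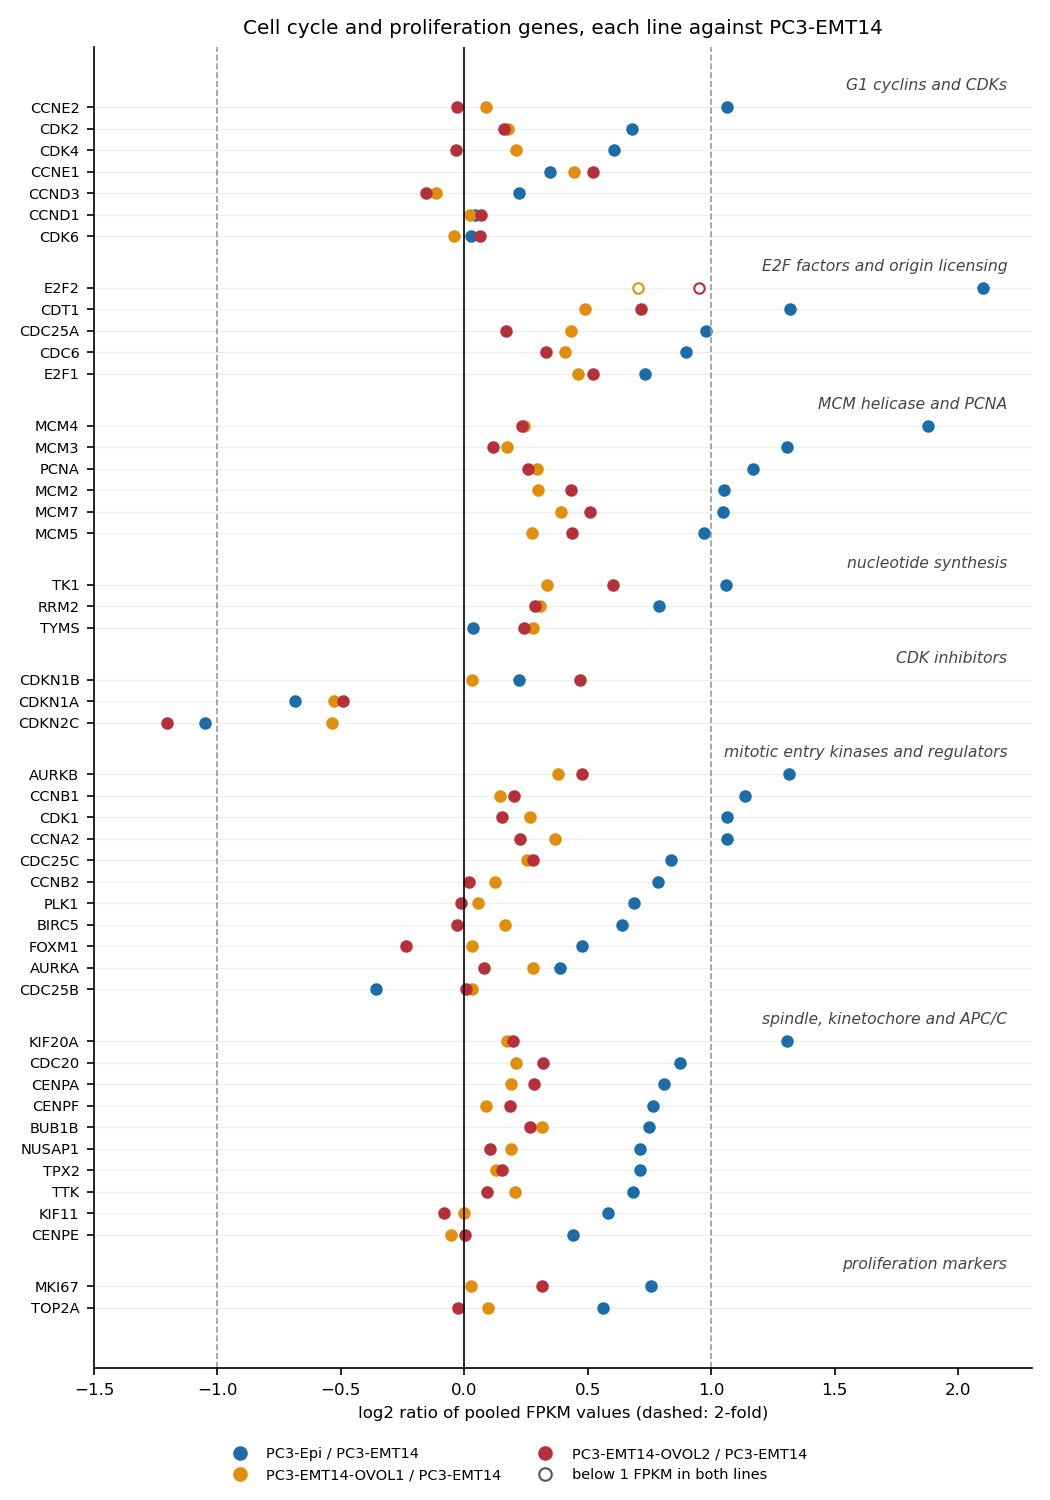
Log2 ratio of pooled FPKM to PC3-EMT14 (horizontal axis) for each of the 47 genes, ordered by role, with PC3-Epi in blue, the OVOL1 line in orange and the OVOL2 line in red. Dashed lines mark 2-fold, and open circles mark values with under 1 FPKM in both lines. The blue points of 14 genes, most of them replication genes or mitotic kinases, lie beyond the right dashed line, while the red and orange points lie between -1.21 and 0.95.

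The E2F factors and the licensing genes held the gene with the largest ratio of all. E2F2, an activating E2F at chr1:23832920-23857712 on hg19, read 0.524 FPKM in PC3-EMT14 and 2.25 in PC3-Epi, a 4.29-fold difference at a low level, and 0.835 and 0.981 in the OVOL1 and OVOL2 lines. E2F1 read 20.4, 33.8, 27.5 and 28.3 FPKM in PC3-EMT14, PC3-Epi and the OVOL1 and OVOL2 lines. CDT1, which brings the MCM helicase to origins and lies at chr16:88870186-88875666, read 4.25, 10.6, 5.84 and 6.76 FPKM in the same order. The epithelial line was thus the highest for E2F2, E2F1 and CDT1, and both OVOL lines sat between it and PC3-EMT14. CDC6, the partner of CDT1, read 15.5, 29.0, 20.2 and 18.9, and CDC25A, the phosphatase that activates CDK2, read 7.01, 13.8, 9.25 and 7.64. The 5 genes had a median log2 ratio of 0.98 in PC3-Epi, 0.45 with OVOL1 and 0.43 with OVOL2. The OVOL medians leave out E2F2 and were the highest of any role group.

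The replication helicase and its clamp stood together in the epithelial line. Of MCM2, MCM3, MCM4, MCM5, MCM7 and PCNA, 5 of 6 were at least 2-fold higher in PC3-Epi, where 7.37% of all genes were. The other, MCM5, was 1.96-fold higher. MCM4 showed the widest gap, with 14.5 FPKM in PC3-EMT14, 53.2 in PC3-Epi, 16.7 in the OVOL1 line and 16.5 in the OVOL2 line, which is 3.68-fold in PC3-Epi. MCM3 read 32.4, 80.2, 35.8 and 34.1 FPKM in that order, and PCNA, the sliding clamp of the polymerases, read 119.1, 268, 143 and 138. MCM2 read 19.6, 40.6, 23.5 and 25.6, MCM5 read 18.8, 36.9, 22.3 and 24.6, and MCM7 read 55.8, 115, 71.7 and 76.9. The complex was not even: MCM4 and MCM3, first and second in PC3-Epi, had the lowest ratios of the group with OVOL2 (0.23 and 0.12), where MCM7 (0.51) had the highest. The entry of MCM7 spans 3 other coding genes (AP4M1, CNPY4 and TAF6), and reads of these may have been counted with it.

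Of the genes that make DNA precursors, TK1 (thymidine kinase) read 83.4 FPKM in PC3-EMT14, 174 in PC3-Epi, 103 in the OVOL1 line and 123 in the OVOL2 line. RRM2, the regulated subunit of ribonucleotide reductase, read 70.0, 121, 84.9 and 82.7. TYMS (thymidylate synthase) did not follow them: it read 92.7 in PC3-EMT14 and 95.1 in PC3-Epi, and was higher in the OVOL lines, at 109.9 and 106. The entry of TYMS covers 115.7 kb and takes in ENOSF1 and CLUL1, so its value may include reads of both.

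Among the cyclins and kinases of G1 the differences ran from almost none to 2.09-fold in PC3-Epi. CCND1 (cyclin D1) was nearly level, at 116 FPKM in PC3-EMT14, 119.5 in PC3-Epi, 115.5 in the OVOL1 line and 118 in the OVOL2 line. CDK6 was level too, at 4.67, 4.76, 4.45 and 4.73 FPKM in the same order. For CCND1, PC3-EMT14 read 113.5 FPKM in its own pair with the OVOL1 line, slightly below that line. CCND3 (cyclin D3) read 28.2, 32.9, 25.5 and 24.5, higher in PC3-Epi and lower in both OVOL lines. CDK4 read 91.6 in PC3-EMT14 and 139 in PC3-Epi, CDK2 read 30.3 and 48.5, and both OVOL lines stood within 1.16-fold of PC3-EMT14 for either kinase. The pair of E cyclins split. CCNE2 was 2.09-fold higher in PC3-Epi (6.64 and 13.9 FPKM) and close to PC3-EMT14 in the OVOL lines (6.92 and 6.32), while CCNE1 (5.14, 6.54, 6.85 and 7.14 FPKM) was 1.27-fold higher in PC3-Epi and 1.36- and 1.44-fold higher with OVOL1 and OVOL2. The entry of CCNE2 overlaps INTS8, that of CDK4 overlaps TSPAN31, and that of CDK2 overlaps PMEL. The 7 genes had medians of 0.35 in PC3-Epi, 0.09 with OVOL1 and 0.06 with OVOL2.

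The kinases and cyclins of mitotic entry were higher in PC3-Epi for 10 of 11 genes, where 49.1% of all genes were higher, with a median of 0.78. AURKB, the kinase of the chromosomal passenger complex (chr17:8108049-8113883), read 18.4 FPKM in PC3-EMT14, 45.7 in PC3-Epi, 23.4 in the OVOL1 line and 24.8 in the OVOL2 line. CCNB1 (cyclin B1) read 52.1, 115, 56.5 and 58.0, CDK1 read 123, 258, 145 and 133, and CCNA2 (cyclin A2) read 16.6, 34.7, 21.0 and 18.8. These 4 were the genes of the group past 2-fold, where the background was 7.37%. BIRC5 (survivin) read 109, 169.8, 119.6 and 103, PLK1 read 31.6, 50.9, 32.2 and 30.3, and AURKA read 65.3, 85.4, 77.6 and 66.9, so that the OVOL2 line stood within 1.06-fold of PC3-EMT14 for each in their own table. FOXM1, a transcription factor of mitotic genes, was 1.39-fold higher in PC3-Epi, level with OVOL1 and lower with OVOL2 (25.6 and 21.7 FPKM). CDC25B, an activator of CDK1, was the exception, at 42.3 in PC3-EMT14 and 33.0 in PC3-Epi, and level in the OVOL lines. CDC25C, its relative, and CCNB2 (cyclin B2) were 1.79- and 1.72-fold higher in PC3-Epi. The entry of CCNA2 overlaps EXOSC9, that of PLK1 overlaps ERN2, and that of FOXM1 overlaps ITFG2 and RHNO1. Their values may include reads of these genes.

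All 10 genes of the spindle, the kinetochore and the anaphase-promoting complex were higher in PC3-Epi, where 49.1% of all genes were. Their median was 0.73, against 0.18 with OVOL1 and 0.17 with OVOL2. KIF20A, a kinesin of cytokinesis (chr5:137514417-137549032), was the only gene of the group past 2-fold, where the background was 7.37%. It read 12.8 FPKM in PC3-EMT14, 31.7 in PC3-Epi, 14.1 in the OVOL1 line and 14.2 in the OVOL2 line. Its entry takes in BRD8 and CDC23. CDC20, the activator of the anaphase-promoting complex, read 55.8, 102, 63.1 and 67.4. CENPA, CENPF and BUB1B of the kinetochore, the spindle proteins NUSAP1 and TPX2 and the checkpoint kinase TTK were 1.61- to 1.75-fold higher in PC3-Epi and 1.06- to 1.24-fold higher in the OVOL lines, and the entry of BUB1B also takes in PAK6. CENPE and KIF11, both motor proteins, had the lowest ratios in PC3-Epi (0.44 and 0.58) and lay between -0.08 and 0.00 in both OVOL lines. Of the clinical markers of proliferation, MKI67 (the Ki-67 antigen) read 15.2 in PC3-EMT14, 25.7 in PC3-Epi, 15.2 in the OVOL1 line and 18.3 in the OVOL2 line, and TOP2A read 38.8, 57.3, 40.5 and 37.0.

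**Figure D3:**
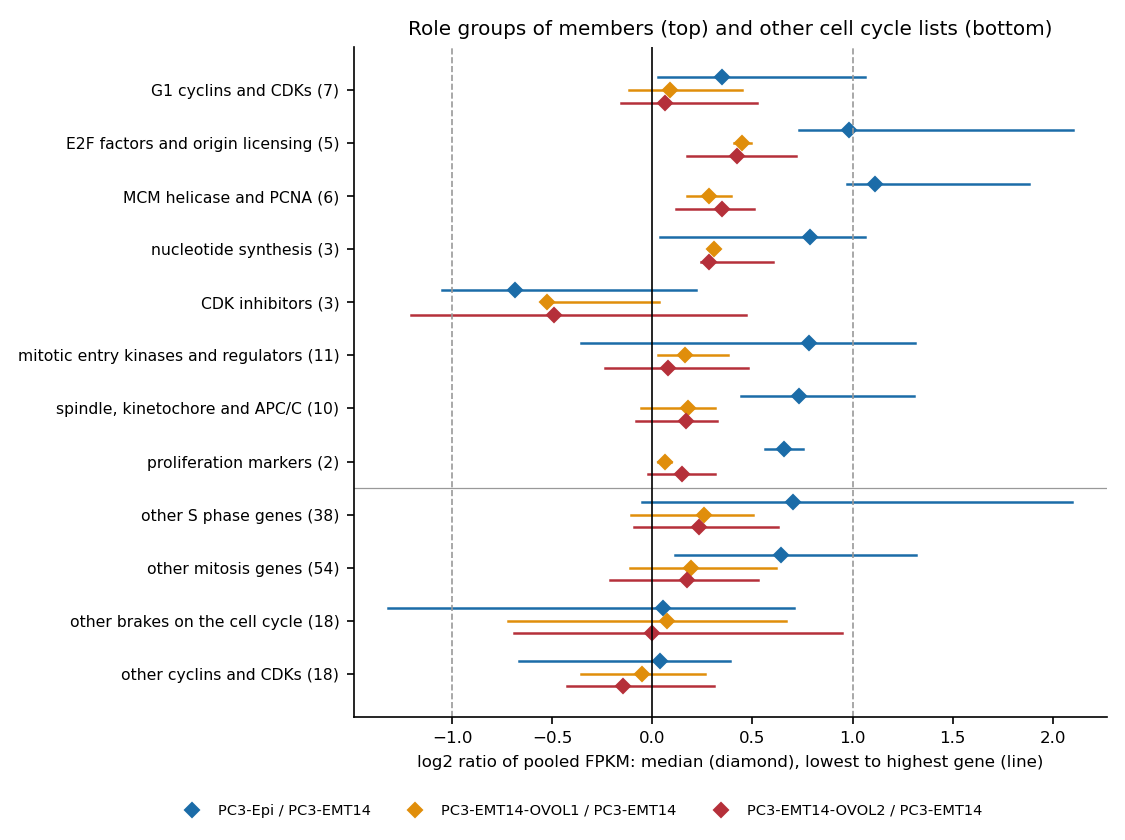
Median (diamond) and lowest to highest gene (line) of the log2 ratio of pooled FPKM to PC3-EMT14 for the role groups, above the grey line, and for the other cell cycle lists, below it, with the number of genes in brackets. The MCM and E2F groups have the highest medians in PC3-Epi (blue, 1.11 and 0.98), the medians of the CDK inhibitors lie below 0 in all 3 lines, and those of the brakes and of the other cyclins lie near 0 in PC3-Epi, the latter at -0.15 with OVOL2.

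The CDK inhibitors CDKN2C and CDKN1A stood on the other side. CDKN2C (p18, which binds CDK4 and CDK6, at chr1:51434367-51440309) read 51.0 FPKM in PC3-EMT14 and was lower in every other line, at 34.4 with OVOL1 and 21.4 with OVOL2, against 24.6 in PC3-Epi. These values are 1.45-, 2.31- and 2.07-fold lower, and CDKN2C in the OVOL2 line was the largest difference of any of the genes in either OVOL comparison. CDKN1A (p21) read 11.5 in PC3-EMT14, 7.14 in PC3-Epi, 7.79 with OVOL1 and 7.92 with OVOL2, which are 1.61-, 1.44- and 1.41-fold lower. CDKN1B (p27) went the opposite way, with 9.999 FPKM in PC3-EMT14, 11.6 in PC3-Epi, 10.02 with OVOL1 and 13.4 with OVOL2.

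The difference in CDKN2C was uneven between its 2 isoforms. TCONS_00000611 read 25.8 FPKM in PC3-EMT14, 20.5 in PC3-Epi, 20.2 with OVOL1 and 16.3 with OVOL2, while TCONS_00000612 read 25.2, 4.17, 14.3 and 5.15. The first isoform made up 50.6% of the gene in PC3-EMT14 and 83.1% in PC3-Epi, 58.6% with OVOL1 and 75.9% with OVOL2. Most of the lower CDKN2C level was therefore in 1 isoform in all 3 lines. Which RefSeq transcript each identifier stands for was not analysed here. Of the 22 genes with several isoforms, those with at least 2 at 1 FPKM were examined: 19 in PC3-Epi, 17 with OVOL1 and 18 with OVOL2. A shift of at least 10 percentage points of the leading isoform was seen for CDKN2C and MKI67 in PC3-Epi. It was seen for none with OVOL1, and for CDKN2C and CDK6 with OVOL2. How often other genes shift this far was not counted, so these counts have no background. CDK6 kept its total while its leading isoform went from 52.1% in PC3-EMT14 to 86.4% in the OVOL2 line. In MKI67 the leading isoform went from 52.4% to 38.9% in PC3-Epi, where both isoforms were higher. An isoform value is an estimate that splits shared reads, and it has no error here.

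**Figure D4:**
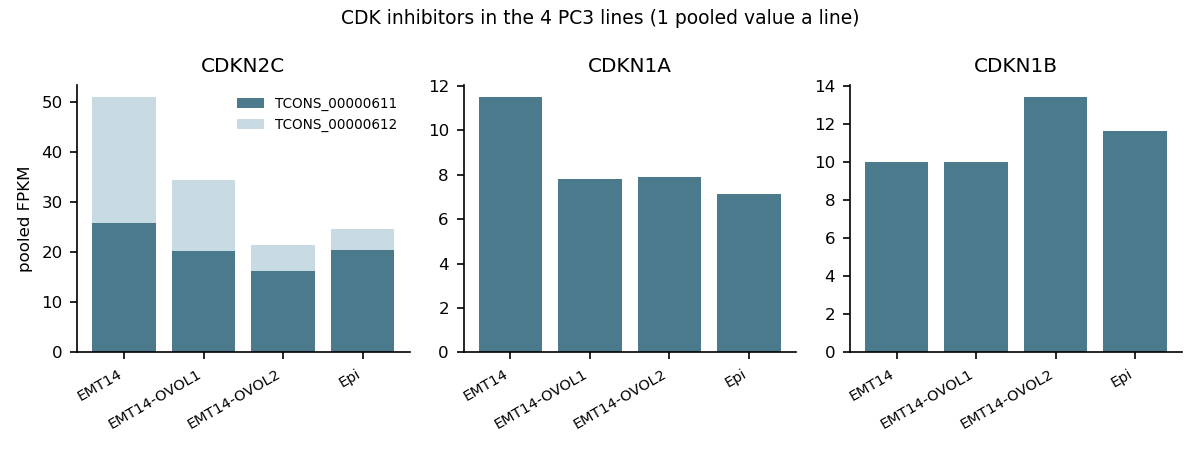
Pooled FPKM (vertical axis, from 0) of the CDK inhibitors CDKN2C, CDKN1A and CDKN1B in the 4 lines, 1 pooled value a line and no error, with the bars of CDKN2C split by isoform. The pale isoform of CDKN2C is 25.2 FPKM in PC3-EMT14 and 4.17 in PC3-Epi, with the OVOL1 line at 14.3 and the OVOL2 line at 5.15, while CDKN1B is highest with OVOL2 at 13.4 FPKM.

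The OVOL lines differed little from each other in these genes. The paper describes a different lentiviral construct for each gene, with a tag on the OVOL2 protein. OVOL1 read 11.15 FPKM in the OVOL1 line, and OVOL2 read 830.6 in the OVOL2 line. Between these lines the gene, its construct and its level cannot be told apart. Of 46 genes, 21 were higher with OVOL2 than with OVOL1 and 25 lower, where 42.5% of all genes were higher, and the median was -0.02 against -0.04, and 0.02 once ratios were centred on all genes. No gene passed 2-fold, where the backgrounds were 1.90% higher and 1.17% lower, and at 1.5-fold 0 were higher and 1 was lower, against 4.74% and 2.72%. That gene was CDKN2C, with 34.1 FPKM in the OVOL1 line and 21.4 in the OVOL2 line. Next came CDKN1B, 1.35-fold higher with OVOL2, and MKI67 and TK1, 1.22- and 1.21-fold higher. On the lower side were FOXM1 and CDC25A, at 0.83 times the OVOL1 level each. This table and that of PC3-Epi and PC3-EMT14 share no library. Over the 46 genes their log2 ratios had a Pearson correlation of 0.30 and a Spearman correlation of 0.18, and the values were 0.26 and 0.11 over the 11939 genes that both tables hold at 1 FPKM, given as a description since genes are not independent.

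Further genes of S phase and of mitosis were mostly higher in PC3-Epi too. Of 38 further S phase genes, 36 were higher in PC3-Epi, where 49.1% of all genes were, with a median of 0.70. At least 2-fold higher were 11 and at least 1.5-fold higher were 27, where 7.37% and 15.2% of all genes passed these folds. The median was 0.26 with OVOL1 and 0.23 with OVOL2. MCM10, a replication initiation factor, read 1.86 FPKM in PC3-EMT14 and 7.95 in PC3-Epi, and GINS2, of the GINS complex of the helicase, read 12.6 and 40.3. All 54 further mitosis genes were higher in PC3-Epi, where 49.1% of all genes were. Their medians were 0.64 in PC3-Epi, 0.19 with OVOL1 and 0.17 with OVOL2. At least 1.5-fold higher in PC3-Epi were 33 of them, against a background of 15.2%, and 5 were at least 2-fold higher, a share near the background of 7.37%. SPC25, a kinetochore protein, read 10.2 and 25.5, and MYBL2, a factor of mitotic genes, read 23.5 and 52.4. The 17 other cyclins, CDKs and partners that reached 1 FPKM had a median of 0.04 in PC3-Epi, with 9 higher and 8 lower. With OVOL1 the median was -0.05, with 7 higher and 10 lower, and with OVOL2 it was -0.15, with 4 higher and 13 lower, on the other side of 0 from the members' medians. These lists were not tested, and their medians stand beside those of all genes, -0.01 in PC3-Epi, -0.00 with OVOL1 and -0.04 with OVOL2. Of all genes, 49.1% were higher in PC3-Epi, 49.7% with OVOL1 and 44.0% with OVOL2.

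Most cell cycle genes lay above the genes around them on the chromosome. For each gene the median was taken over the 25 genes on either side that reached 1 FPKM. In PC3-Epi these neighbour medians ran from -0.25 to 0.45, 39 of 47 were within 0.2 of 0, and 43 genes lay above their own neighbours, by a median of 0.84. MCM4 itself stood at 1.88, among neighbours at 0.34. CDKN1A lay among neighbours at 0.45 and itself stood at -0.69, while CCND3, on the same arm of chromosome 6, was at 0.22 among neighbours at 0.35. CCND1, CDK6, TYMS and CDKN1B, which differed little in PC3-Epi, were also within 0.2 of their neighbours. With OVOL1 and OVOL2, 41 and 40 genes lay above their neighbours, E2F2 included, though it stayed under 1 FPKM there. The share of all genes that lie above their own neighbours was not counted. Since most neighbour medians lay near 0, these counts largely repeat the counts of genes higher than in PC3-EMT14.

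The promoters of these genes were examined because the replication and the mitotic genes are known to answer to different factors. E2F factors bind the E2F element (searched as TTTCGCGC, TTTGGCGC, TTTCCCGC or TTTGCCGC), the MuvB complexes bind the cell cycle homology region or CHR (TTTGAA), and NF-Y binds CCAAT, and none of these motifs holds the letters of another. The 300 bases from 250 before to 50 after the start were searched on both strands in the RefSeq promoters of GRCh38.p14, in which 37 of the 47 genes were found. The 250 bases before the start are printed for the genes with the largest ratios in PC3-Epi that hold a match there (E2F2, CDT1, AURKB and KIF20A), and for CENPA, which was picked after its matches were seen because it holds all 3 kinds of element. They lie at chr1:23531234-23531483 (minus strand), chr16:88803539-88803788 (plus), chr17:8210226-8210475 (minus), chr5:138178862-138179111 (plus) and chr2:26785806-26786055 (plus), and are written 5′ to 3′ on the strand of the gene, with the matched letters, on either strand, in capitals.
E2F2: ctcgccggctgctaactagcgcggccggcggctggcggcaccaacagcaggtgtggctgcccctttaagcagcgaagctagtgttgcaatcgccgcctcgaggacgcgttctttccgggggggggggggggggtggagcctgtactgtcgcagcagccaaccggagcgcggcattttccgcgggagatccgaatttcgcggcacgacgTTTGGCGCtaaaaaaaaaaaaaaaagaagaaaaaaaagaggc
CDT1: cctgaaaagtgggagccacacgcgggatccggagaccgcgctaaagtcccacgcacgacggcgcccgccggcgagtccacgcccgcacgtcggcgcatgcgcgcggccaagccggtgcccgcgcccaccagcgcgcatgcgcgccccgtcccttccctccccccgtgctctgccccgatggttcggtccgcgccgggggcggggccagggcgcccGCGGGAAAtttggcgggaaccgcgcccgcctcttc
AURKB: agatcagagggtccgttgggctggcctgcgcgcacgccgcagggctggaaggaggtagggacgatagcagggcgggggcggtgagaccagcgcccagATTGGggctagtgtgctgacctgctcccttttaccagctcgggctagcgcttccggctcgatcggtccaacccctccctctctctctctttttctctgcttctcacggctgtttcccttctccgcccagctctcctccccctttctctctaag
KIF20A: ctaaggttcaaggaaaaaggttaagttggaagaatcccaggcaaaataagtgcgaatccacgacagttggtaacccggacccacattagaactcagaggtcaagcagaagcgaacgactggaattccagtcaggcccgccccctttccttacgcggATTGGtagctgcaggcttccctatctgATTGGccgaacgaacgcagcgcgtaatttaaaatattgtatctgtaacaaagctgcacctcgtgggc
CENPA: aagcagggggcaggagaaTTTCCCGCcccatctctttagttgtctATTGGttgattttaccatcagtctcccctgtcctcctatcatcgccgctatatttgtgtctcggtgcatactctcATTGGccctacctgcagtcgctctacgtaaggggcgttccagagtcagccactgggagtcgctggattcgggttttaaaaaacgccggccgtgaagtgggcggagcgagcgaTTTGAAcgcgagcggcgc
In E2F2 and CDT1 the capitals are 1 E2F element, which begins 42 and 35 bases before the start. In AURKB and KIF20A they are CCAAT boxes read on the opposite strand, 1 and 2 of them, those of KIF20A beginning 94 and 67 bases before the start. CENPA, the histone of the centromere, holds 1 E2F element 232 bases before the start, 2 CCAAT boxes and 1 CHR 18 bases before the start.

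The elements were unevenly spread over the phases. E2F elements were found in all 5 promoters of the E2F and licensing genes and in all 4 available for the 6 MCM and PCNA genes. Over all G1 and S phase groups they were found in 10 of 16 promoters (62.5%), against 3.33% of all 27305 promoters. No promoter of those 16 held a CHR, against 15.4% of all promoters, and 43.8% held CCAAT, against 35.7%. The mitotic groups with the proliferation markers held a CHR in 11 of 18 promoters (61.1%) and CCAAT in 14 (77.8%). They held an E2F element in 3 (16.7%), fewer than the G1 and S groups but above the 3.33% of all promoters. These 3 were CDK1, CENPA and NUSAP1, which hold all 3 kinds. The further S phase genes (31 promoters) held E2F elements in 38.7% and a CHR in 6.45%, and the further mitosis genes (48 promoters) held them in 4.17% and 70.8%. None of the 4 promoters of G1 cyclins and CDKs held any of the elements, and of the CDK inhibitors only CDKN1B held one, a CCAAT box. Among the genes at least 2-fold higher in PC3-Epi, E2F2, CDT1, MCM3, MCM7, MCM2 and PCNA held E2F elements, CDK1 all 3 kinds, and TK1 none. CCNA2, CCNB1, AURKB and KIF20A held CCAAT but neither a CHR nor an E2F element, and MCM4 and CCNE2 had no promoter to search. A match in these letters is a description and not a measured binding site.

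**Figure D5:**
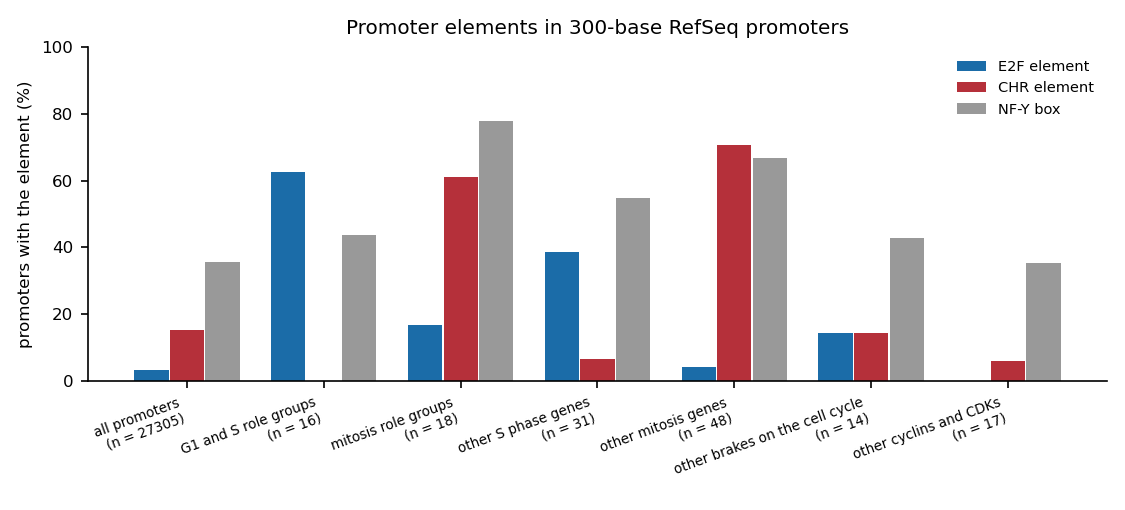
Share of RefSeq promoters of 300 bases (vertical axis, percent) that hold an E2F element (blue), a CHR element (red) or an NF-Y box, CCAAT (grey), for all promoters and for groups of cell cycle genes, with the number of promoters in brackets. E2F elements stand out in the G1 and S groups (62.5% against 3.33% of all promoters) and the CHR in the mitotic groups (61.1% against 15.4%).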

How the data were processed

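RNA of 4 PC3 lines, 10 libraries in all, was sequenced as paired ends. The authors aligned the reads to hg19 with TopHat 2.0.2 and ran Cuffdiff 2.0.2 once per pair of lines, with upper-quartile normalization, bias correction and correction for reads that align at more than 1 place. The deposited values used here are 1 pooled FPKM per line and gene (23170) or isoform (37557) in each table. The deposited columns of fold change, test statistic, p, q and status hold the authors' comparisons and were not used, so there is no replicate error and no test. Whether the counting used strand is not given in the sources used here, so reads of overlapping genes cannot be separated. Upper-quartile scaling assumes that most genes are level between lines.

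Ratios were taken per table without a pseudocount, for genes with at least 1 FPKM in the higher line, using Python 3.11.15, numpy 2.4.6, pandas 2.3.3, scipy 1.17.1 and matplotlib 3.10.9. Members are counted past 2-fold and 1.5-fold, beside all genes under the same rule. Samples were grouped by the labels. Loci are those of the tables, and overlaps come from GENCODE genes on the same build. Any member may be named under its role. Values are given for those past 2-fold, the 5 with the largest change in each direction and the largest of each role group. Of the other lists, at most the 2 genes with the largest change per direction are named. The members, lists and rules were chosen with earlier results of these data known. The script was tested on simulated data.

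The alternatives tried were no floor, a floor of 5 FPKM, a pseudocount of 1 FPKM, ratios centred on the median of all genes, entries with a single symbol, summed isoforms, 1.5-fold, and, between the OVOL lines, ratios through PC3-EMT14.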

Additional observations from a re-analysis of the deposited data

How the results depend on the processing

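The medians and counts over the cell cycle genes were recomputed under each alternative, giving 83 values, of which 79 stayed within 1.5 times of the count or within 0.1 log2 of the median as reported. Part of this agreement is built in. Summed isoforms gave the same values in every comparison, and ratios through PC3-EMT14 reuse the same libraries. The median between the OVOL lines, -0.02, turned to 0.02 when ratios were centred on the median of all genes, so its sign depends on the scaling. No other median changed sign under these alternatives. The 4 that moved were counts at 1.5-fold in place of 2-fold: 33 genes higher and 2 lower in PC3-Epi, 2 higher with OVOL2, and 1 lower in OVOL2 against OVOL1. No paired analysis was possible because the deposited columns are pooled per line and carry no replicate number, and for the same reason no library could be left out. Without library totals the depth behind a level is unknown, and E2F2 was the member with the lowest level.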

Other observations

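The 18 other brakes on the cell cycle had medians of 0.05 in PC3-Epi, 0.07 with OVOL1 and -0.00 with OVOL2, with 9 higher and 9 lower in PC3-Epi. CDKN2B (p15), like CDKN2C an inhibitor of CDK4 and CDK6, read 28.6 FPKM in PC3-EMT14 and was lower in the other lines, at 14.9 in PC3-Epi, 17.0 with OVOL1 and 17.1 with OVOL2, and its entry overlaps CDKN2A. CDKN1C (p57) read 4.61 FPKM in PC3-EMT14 and 1.85 in PC3-Epi, and 4.05 with OVOL1 and 5.95 with OVOL2. CDKN3, a phosphatase that acts on CDK2 and is itself expressed in cycling cells, read 160.3 in PC3-EMT14, 258 in PC3-Epi, 249 with OVOL1 and 272 with OVOL2, higher in all 3 lines than in PC3-EMT14. GADD45B, a stress-induced gene, was level in PC3-Epi (20.1 and 19.9 FPKM) and read 27.9 with OVOL1 and 37.4 with OVOL2. These are pooled values with no error and no test.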
